A study of Homo sapiens with 192 samples.

Results

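The nuclear genes of respiratory complex I were followed in 4 lines of colorectal cancer (CRC) cells, in 2D and in 3D culture. Members were the protein-coding genes whose symbol begins with NDUFA, NDUFB, NDUFC, NDUFS or NDUFV, which gave 48 of the 58243 genes counted. They comprised 7 core subunits, 9 accessory subunits of the peripheral arm, 20 accessory subunits of the membrane arm, the acyl carrier protein NDUFAB1, 8 assembly factors named NDUFAF, NDUFA4 with its paralog NDUFA4L2, and the readthrough gene NDUFC2-KCTD14. All 48 passed the filter on low counts. NDUFA4L2 passed through HT29 and LS174T alone, since no library of LS513 or HCT116 held more than 26 counts for it.

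Complex I oxidises NADH, hands the electrons to ubiquinone and pumps protons across the inner mitochondrial membrane. Its peripheral arm carries the flavin and the iron-sulfur clusters, its membrane arm holds the proton pumps, which are encoded by mitochondrial DNA, and the accessory subunits encoded in the nucleus stabilise both arms. The NDUFAF proteins help to build the enzyme and are absent from the finished complex, while NDUFA4 is now assigned to cytochrome c oxidase and NDUFA4L2 is a known target gene of the hypoxia-inducible factors.

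HT29, LS513, HCT116 and LS174T are established human lines derived from tumors of the large intestine. For each line, 3 libraries were made from 2D and 3 from 3D culture, which makes 8 groups and 24 libraries, and the labels name neither a drug nor an engineered allele. According to the methods, HCT116 was kept in McCoy medium and the other lines in DMEM, so medium and line cannot be told apart for HCT116. The 3D culture that gave the RNA is not described further. Nothing says whether the 3 libraries of a group came from separate cultures, so the spread between them may be technical. The p-values rest on an estimate of this spread shared by all 24 libraries, so those of a line depend on the other lines too.

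Library totals ranged from 18723942 to 34277421 counts, so that 3 counts, taken as the floor of detection, corresponded to between 0.0875 and 0.160 CPM (counts relative to the library total) without TMM scaling. Levels below are CPM with TMM scaling. The 8 markers of colon epithelium each exceeded the floor in at least 1 library and summed to between 2874 and 17307 CPM per library. Of other cell types, 2 of 4 fibroblast markers (0.341 to 22.1 CPM in sum, COL1A2 at 0), 3 of 3 endothelial markers (0.0299 to 2.38 CPM) and 1 of 3 leukocyte markers (0 to 15.1 CPM, CD3E at 0) exceeded it in at least 1 library. A library of LS174T grown in 3D, replicate 2, stood apart. In it, 46 of the 48 members were higher than in both other libraries of the group, against 41.1% of all tested genes, and the median member lay 0.56 above them on the log2 scale. In HCT116, replicate 3 held the highest value of its group for 43 of the 48 members in 2D (40.2% of all tested genes) and for 43 in 3D (38.5%).

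In HT29, the summed level of the 37 subunits was 3197, 3327 and 3182 CPM in 2D and 3942, 4163 and 4067 CPM in 3D. In LS513, the 2D libraries held 3063, 3085 and 3048 CPM and the 3D libraries held 3528, 3860 and 3231 CPM. In HCT116, 3120, 2932 and 3693 CPM in 2D stood against 3467, 3468 and 4018 CPM in 3D. The 3D libraries were all above the 2D libraries in HT29 and LS513, and the groups overlapped in HCT116. In LS174T, the 2D libraries held 3128, 3022 and 2998 CPM and the 3D libraries held 3591, 5195 and 3246 CPM, all of them above the 2D libraries, with replicate 2 far above the others of its group. Most members have short transcripts, and other short genes moved with them. The share of all counts in other genes with coding transcripts under 1000 bases was between 11.7% and 13.9% in the 2D libraries and between 12.7% and 18.3% in the 3D libraries, and it was highest in LS174T 3D replicate 2. Its part in the results below was not tested.

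**Figure D1:**
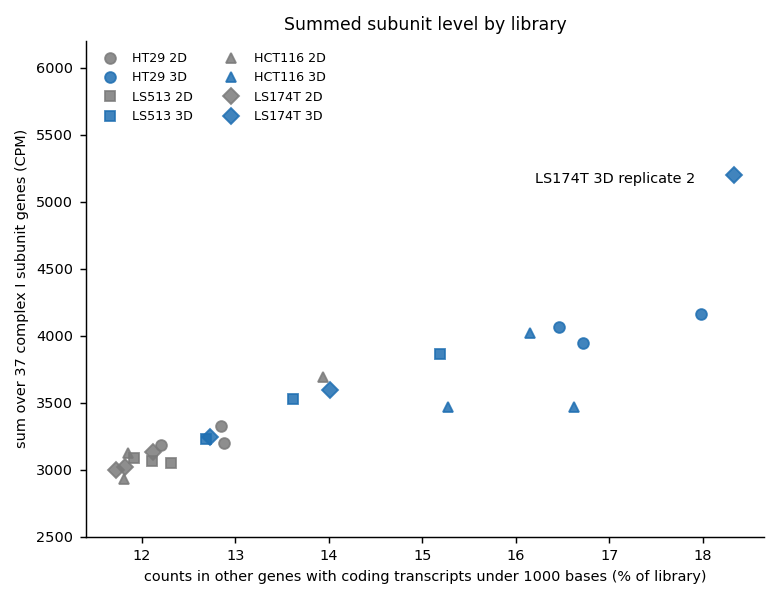
Summed level of the 37 complex I subunit genes (CPM, y axis, not starting at 0) against the share of counts in other genes with coding transcripts under 1000 bases (percent of the library, x axis), 1 point per library, with 2D in grey and 3D in blue and a symbol for each line. LS174T 3D replicate 2 lies at the upper right with 5195 CPM and 18.3%.

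To find out which members differed with growth condition, 3D was set against 2D within each line, in 1 edgeR quasi-likelihood fit of all 24 libraries, and a member was called at an adjusted p under 0.05 over the 19387 genes tested. In HT29, 29 members were called, 27 higher and 2 lower in 3D, where 40.7% of all tested genes were called, 21.1% higher and 19.6% lower. In LS174T, 21 members were called, all of them higher, against 22.2% of all genes, 13.1% higher and 9.15% lower. In HCT116, 7 members were higher and 3 lower, with 29.1% of all genes called, 16.8% higher and 12.3% lower. In LS513, 5 members were higher and 2 lower, with 23.6% of all genes called, 13.7% higher and 9.9% lower. The share of members that rose was therefore above that of all genes in HT29 and LS174T, and near or under it in LS513 and HCT116. With only the 6 LS174T libraries in the fit, 2 members were called in that line, where 6.85% of all genes were called higher, so its share was then under that of all genes. Without regard to the test, all 3D libraries were higher than all 2D libraries for 33 members in HT29 (27.3% of all genes), 23 in LS513 (23.0%), 20 in LS174T (20.9%) and 13 in HCT116 (22.8%), and all were lower for 1, 3, 0 and 3 members (25.6%, 20.0%, 17.6% and 17.6%). At an unadjusted p under 0.05, edgeR passed 32 members in HT29, 15 in LS513, 31 in LS174T and 18 in HCT116, beside 48.5%, 34.9%, 36.0% and 39.7% of all genes. These are levels relative to the polyadenylated RNA captured from a culture, in which fewer cells with a transcript and less of it per cell cannot be told apart. The median log2 fold change (3D over 2D) over the 48 members was 0.34 in HT29, 0.20 in LS513, 0.31 in LS174T and 0.11 in HCT116, whereas the median over all tested genes was 0.00, 0.00, 0.02 and 0.01. The fold cutoffs of the study, which are -0.5 and 1.5 on the log2 scale, were also set on top of the adjusted p. The study set them beside p under 0.05 and used DESeq2. Here 1 member per line passed, NDUFA4L2 in HT29 and LS174T and NDUFAF6 in LS513 and HCT116. Of all genes, 17.4% passed for HT29, 8.03% for LS513, 9.28% for HCT116 and 7.26% for LS174T.

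**Figure D2:**
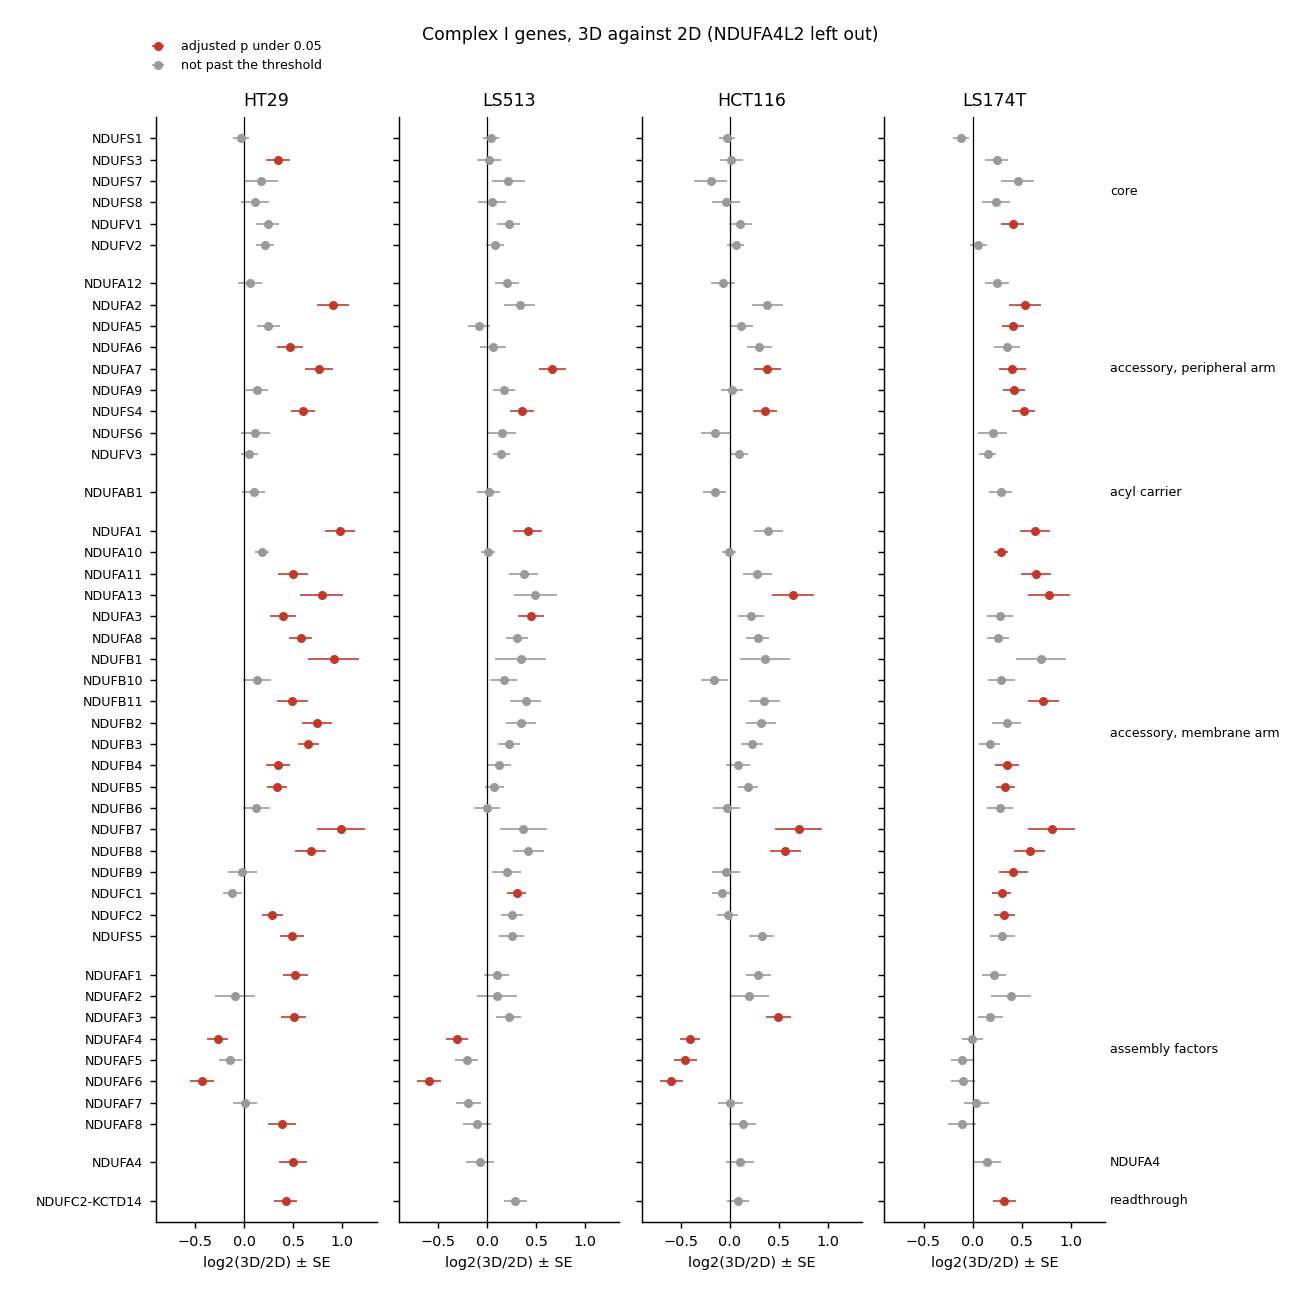
Log2 fold change of 3D over 2D with its standard error by member (NDUFA4L2 is left out) in 4 panels, 1 per line, ordered by role, with members past an adjusted p of 0.05 in red and the others in grey. The red points of HT29 reach from -0.43 (NDUFAF6) to 0.99 (NDUFB7), while in LS174T all red points are above 0.

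The number of calls depended on single libraries in 3 of the lines. In LS174T, 6 members were called without 3D replicate 2 (NDUFA1, NDUFA5, NDUFA11, NDUFA4L2, NDUFB11 and NDUFS4, all of them among the 21) and 34 without 3D replicate 3, with 11, 12 and 11 when 2D replicates 1, 2 and 3 were left out. Of all tested genes, 10.5% and 30.5% were called in the first pair of fits and 13.7%, 14.0% and 13.2% in the others. Without 3D replicate 2, the difference was positive for 40 of the 48 members of LS174T, with a median of 0.11, in place of 43 and 0.31. The matching values of all tested genes and of other short genes are not given for that fit, so the 40 cannot be judged against them. In LS513, leaving out 2D replicates 1, 2 and 3 gave 2, 2 and 4 calls, leaving out 3D replicates 1, 2 and 3 gave 2, 2 and 13, and leaving out LS174T 3D replicates 2 and 3 gave 18 and 12. In the same order, the share of all genes called was 16.3%, 15.3%, 19.4%, 15.4%, 14.0%, 26.3%, 28.5% and 24.7%. In HCT116, 5 and 3 members were called without 2D replicates 1 and 2, 4 without 3D replicate 3 and 16 without LS174T 3D replicate 2, where 18.9%, 20.1%, 27.8% and 34.5% of all genes were called. In HT29, between 26 and 32 members were called whichever of the 24 libraries was left out, and between 32.1% and 44.1% of all genes.

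Calls were also counted by transcript length, with NDUFA4L2 (1177 bases) left out. Of the 29 members under 1000 bases, 19 rose in HT29, 5 in LS513, 12 in LS174T and 6 in HCT116. Of the 1323 other short genes, 40.2%, 22.5%, 30.9% and 28.4% rose. The median log2 fold change of the short members was 0.39, 0.25, 0.30 and 0.20 in these lines, beside 0.32, 0.17, 0.29 and 0.22 for the other short genes. Of the 18 longer members other than NDUFA4L2, 7, 0, 8 and 1 rose in these lines, beside 21.4%, 14.8%, 12.8% and 17.9% of the other long genes. The longer members had medians of 0.21, 0.07, 0.31 and 0.10, and the other long genes had medians of 0.00 in each line. The medians of the short members thus lay close to those of other genes of that length. Those of the longer members lay above those of the other long genes in each line, by least in LS513. By calls, the share of short members that rose was above that of the other short genes in HT29 and LS174T. It was under that share in LS513 and HCT116. The longer members, set against the other long genes, were also above in HT29 and LS174T and under in LS513 and HCT116. The cause was not tested.

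Across the lines, 36 of the 48 members were called in at least 1 line, as were 60.9% of all tested genes, 12 in none and none in opposite directions. The difference was positive in all 4 lines for 28 members, as it was for 23.5% of all tested genes. In at least 3 lines, 7 members rose (8.38% of all genes did) and 2 fell (6.32%). The first number was 14 without LS174T 3D replicate 3, 3 and 2 without HCT116 2D replicates 1 and 2, and 4 without HCT116 3D replicate 1 or 3 or LS174T 2D replicate 2 or 3. The second was 0 without HT29 3D replicate 4, still 2 without HT29 2D replicate 1 or LS174T 3D replicate 3, and 1 without any of the other libraries. The share of all genes called in at least 3 lines was not taken in these fits, so these numbers cannot be set against it. The 12 members called in no line were NDUFS1, NDUFS7, NDUFS8 and NDUFV2 of the core, NDUFA12, NDUFS6 and NDUFV3 of the peripheral arm, NDUFB6 and NDUFB10 of the membrane arm, the acyl carrier protein NDUFAB1, and the assembly factors NDUFAF2 and NDUFAF7.

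The largest difference among the members was that of NDUFA4L2 (ENSG00000185633, chr12:57234903-57240715, minus strand, GRCh38). In HT29, its level was 1.20, 1.48 and 3.29 CPM in 2D and 71.3, 30.5 and 51.7 CPM in 3D. All 3D libraries were far above the 2D libraries, and 3D exceeded 2D by 4.77 on the log2 scale, a fold of 27.3 (standard error 0.44, adjusted p = 7.8e-08, edgeR). In LS174T, it was 12.1, 3.61 and 5.60 CPM in 2D and 177, 229 and 174 CPM in 3D. The groups did not overlap there either, and the log2 fold change was again 4.77 (standard error 0.40, adjusted p = 5.0e-08, edgeR). Without 3D replicate 2 of LS174T it was 4.64.

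In LS513 and HCT116, NDUFA4L2 was near the floor. The 3 LS513 libraries grown in 2D held 1 count each and those grown in 3D held 4, 8 and 3 counts, a ratio of summed counts, relative to the totals, of 5.11 with an exact 95% interval of 1.44 to 27.5. In HCT116, counts of 0, 7 and 5 in 2D stood beside 26, 9 and 6 in 3D, a ratio of 3.47 with an interval of 1.79 to 7.26, and the groups overlapped on the CPM scale. These intervals cover counting error alone, and neither line passed the test (adjusted p = 0.37 and 0.19, edgeR). With DESeq2, HCT116 passed (adjusted p = 0.041) and LS513 did not (adjusted p = 0.077), and both passed in the edgeR fit without the filter on low counts (adjusted p = 0.00024 and 0.015). The interaction of line and growth for NDUFA4L2 missed the threshold in the filtered edgeR fit (adjusted p = 0.40) and passed it with DESeq2 (adjusted p = 0.038) and in the edgeR fit without the filter (adjusted p = 2.9e-05).

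NDUFA4 (ENSG00000189043, chr7:10931951-10940256, minus strand), the paralog found in complex IV, was well expressed in every library, at between 112 and 317 CPM. In HT29, it was 152, 150.0 and 137 CPM in 2D and 190.5, 232 and 198 CPM in 3D, without overlap, and rose by a fold of 1.41 (log2 fold change 0.50, standard error 0.14, adjusted p = 0.0077, edgeR). Its log2 fold change was 0.11 in HCT116, 0.14 in LS174T and -0.07 in LS513, with overlapping groups in each and adjusted p-values between 0.49 and 0.81. In LS174T, where NDUFA4L2 rose, NDUFA4 was 207, 214 and 209 CPM in 2D and 202, 317 and 178 CPM in 3D, so that its high value was that of replicate 2.

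**Figure D3:**
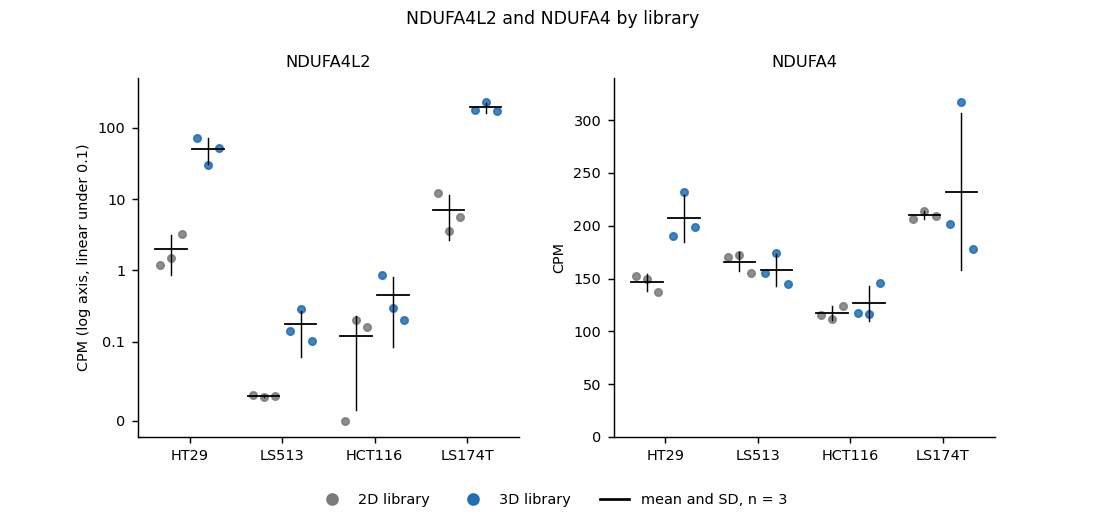
Level of NDUFA4L2 (left, CPM on a log axis that is linear under 0.1) and NDUFA4 (right, CPM) in each library by line, with 2D in grey, 3D in blue, and the mean and SD over 3 libraries in black. NDUFA4L2 reached 30.5 CPM or more in the 3D libraries of HT29 and LS174T and stayed under 1 CPM in LS513 and HCT116, while NDUFA4 lay between 112 and 317 CPM.

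The upstream sequences of the pair are shown because NDUFA4L2 was called in HT29 and LS174T and NDUFA4 in HT29 alone. They come from RefSeq (GRCh38.p14), which gave windows of the 250 bases before the start for 42 of the 48 members, and bases inside a GENCODE 29 exon were left out, so that 147 bases remain for NDUFA4. The NDUFA4L2 window is chr12:57240763-57241012 and that of NDUFA4 is chr7:10940257-10940403, both on the minus strand and written 5′ to 3′. Capitals mark ACGTG or GCGTG, the core letters of the element bound by hypoxia-inducible factors, on either strand.
NDUFA4L2: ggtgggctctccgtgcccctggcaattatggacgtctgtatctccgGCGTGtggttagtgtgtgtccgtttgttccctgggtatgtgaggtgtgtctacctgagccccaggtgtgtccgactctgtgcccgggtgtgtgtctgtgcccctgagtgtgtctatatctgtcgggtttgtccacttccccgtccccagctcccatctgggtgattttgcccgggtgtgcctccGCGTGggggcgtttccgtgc
NDUFA4: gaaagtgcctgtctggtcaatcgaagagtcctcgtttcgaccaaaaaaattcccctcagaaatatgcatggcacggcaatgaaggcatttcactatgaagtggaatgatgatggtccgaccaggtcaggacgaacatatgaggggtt
The NDUFA4L2 window held GCGTG at 2 places and those 147 bases of NDUFA4 held neither. These letters are common: 26 of the 42 members (61.9%) and 50.5% of 15843 coding promoters held ACGTG or GCGTG. Searched in the same way on both strands, the ETS core CCGGAAG was in 6 members (14.3%, beside 11.8% of promoters), CACGTG, which overlaps ACGTG, in 4 (9.52% beside 7.84%) and AAGATGGC, the core of the YY1 motif, in none (1.39% of promoters).

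The core subunits carry the catalytic steps. NDUFS3, a peripheral core subunit, rose in HT29 (0.34, adjusted p = 0.025, edgeR) and NDUFV1, which holds the flavin, rose in LS174T (0.41, adjusted p = 0.015, edgeR; 0.20 and not called without replicate 2). For NDUFS1, which carries several iron-sulfur clusters, the log2 fold changes lay between -0.12 and 0.04. NDUFS7, NDUFS8 and NDUFV2 had log2 fold changes between -0.20 and 0.46, none of them called. The call of NDUFS3 was lost without HT29 2D replicate 3 or 3D replicate 3 (lowest value 0.33, adjusted p up to 0.058, edgeR).

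Among the 9 accessory subunits of the peripheral arm, 4 rose in HT29, 2 in LS513, 5 in LS174T and 2 in HCT116, and none fell. In the same order, 21.1%, 13.7%, 13.1% and 16.8% of all tested genes rose. Without 3D replicate 2, the calls left to this arm in LS174T were NDUFA5 and NDUFS4, where 7.05% of all genes rose. NDUFA7 (chr19:8308768-8321396, minus strand) and NDUFS4 (chr5:53560633-53683340, plus strand) were the members called in all 4 lines, where 3.14% of all genes rose. NDUFS4, which helps to hold the NADH-oxidising module on the complex, was 47.2, 47.2 and 45.4 CPM in 2D and 66.5, 74.5 and 70.6 CPM in 3D in HT29. In LS513, it was 22.8, 22.8 and 23.6 CPM in 2D and 28.6, 34.4 and 25.8 CPM in 3D. In HCT116, 34.8, 35.1 and 45.4 CPM in 2D stood beside 46.5, 48.1 and 53.1 CPM in 3D. Every 3D library lay above every 2D library of its line, narrowly so in HCT116. In LS174T, NDUFS4 was 31.7, 33.5 and 34.6 CPM in 2D and 46.5, 56.5 and 40.2 CPM in 3D, again without overlap, and it remained called there without replicate 2. The log2 fold changes of NDUFS4 were 0.60, 0.36, 0.36 and 0.52 in HT29, LS513, HCT116 and LS174T (adjusted p = 0.00042, 0.035, 0.028 and 0.0040, edgeR). In LS513 the call was lost without any 1 of 2D replicates 1, 2 and 3 and 3D replicates 1 and 2 (lowest value 0.23, adjusted p up to 0.26, edgeR), and in HCT116 without any 1 of 2D replicates 1 and 2 and 3D replicates 2 and 3 (lowest value 0.28, adjusted p up to 0.14, edgeR).

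NDUFA7 was 26.1, 26.8 and 27.5 CPM in HT29 grown in 2D and 44.3, 47.4 and 44.7 CPM in 3D. In LS513, it was 39.0, 37.2 and 42.4 CPM in 2D and 67.7, 69.5 and 50.8 CPM in 3D. The groups did not overlap in these lines nor in HCT116, and in LS174T they overlapped slightly (64.2 CPM in 2D replicate 1 against 64.1 CPM in 3D replicate 3). The log2 fold changes of NDUFA7 were 0.76, 0.66, 0.38 and 0.40 in HT29, LS513, HCT116 and LS174T (adjusted p = 0.00018, 0.0011, 0.040 and 0.037, edgeR). The value in LS174T was 0.17 without 3D replicate 2 and was then not called, the call there was also lost without any 1 of 2D replicates 1, 2 and 3, and the call in HCT116 was lost without any 1 of 12 libraries, the 6 of HT29, LS513 3D replicate 1, HCT116 2D replicates 1 and 2 and the 3 of HCT116 in 3D (lowest value 0.29, adjusted p up to 0.16, edgeR). In addition, NDUFA2 rose in HT29 (0.90) and LS174T (0.53), NDUFA6 in HT29 (0.47), and NDUFA5 (0.41) and NDUFA9 (0.43) in LS174T, where NDUFA2 and NDUFA9 were not called without replicate 2.

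Of the 20 accessory subunits of the membrane arm, 15 rose in HT29, 3 in LS513, 12 in LS174T and 3 in HCT116. None fell, and the medians were 0.49, 0.30, 0.34 and 0.25. Of all tested genes, 21.1%, 13.7%, 13.1% and 16.8% rose, so the counts in LS513 and HCT116 were near these shares. Most of the 20 have coding transcripts under 1000 bases, and of other genes that short 40.2%, 22.5%, 30.9% and 28.4% rose. Against these short genes, the counts in LS513 and HCT116 were low. Without 3D replicate 2, the calls left to this arm in LS174T were NDUFA1, NDUFA11 and NDUFB11, where 7.05% of all genes rose. NDUFA1 (chrX:119871487-119876662, plus strand), a small single-pass subunit needed for assembly, was called in 3 lines. Its level in HT29 was 77.3, 77.6 and 77.7 CPM in 2D and 135, 168 and 154 CPM in 3D, a fold of 1.97 (log2 fold change 0.98, standard error 0.15, adjusted p = 2.5e-05, edgeR). In LS174T, 73.7, 74.0 and 72.8 CPM in 2D stood beside 103, 155 and 86.0 CPM in 3D (0.64, adjusted p = 0.0043, edgeR). NDUFA1 did not overlap between growth conditions in any line. In LS513 (0.41, adjusted p = 0.047, edgeR) it kept its call in 7 of the 24 fits with 1 library left out (HT29 3D replicate 1, LS513 3D replicate 3, HCT116 replicate 3 in 2D or 3D, or any LS174T 3D library), with a lowest value of 0.26, and in HCT116 (0.39, adjusted p = 0.050, edgeR) it lay at the threshold without passing it.

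NDUFB7, a disulfide-bonded subunit that faces the intermembrane space, and NDUFB8 and NDUFA13, which cross the membrane, rose in HT29, HCT116 and LS174T. NDUFB7 was 39.9, 39.8 and 37.7 CPM in HT29 grown in 2D and 66.6, 87.8 and 78.4 CPM in 3D (log2 fold change 0.99, adjusted p = 0.0027, edgeR). In HCT116, it was 62.4, 52.9 and 84.0 CPM in 2D and 98.0, 89.6 and 137 CPM in 3D (0.70, adjusted p = 0.030, edgeR). In both lines, the 3D libraries lay above the 2D libraries. In LS174T, 68.7, 57.8 and 56.9 CPM in 2D overlapped with 79.2, 173 and 68.3 CPM in 3D, and the log2 fold change was 0.80 (adjusted p = 0.020, edgeR), or 0.28 and no longer called without replicate 2. NDUFB8 showed log2 fold changes of 0.68, 0.57 and 0.58 in HT29, HCT116 and LS174T (adjusted p = 0.0016, 0.0089 and 0.011, edgeR), and 0.32 in LS174T without replicate 2, then not called. NDUFA13 showed 0.79, 0.65 and 0.78 (adjusted p = 0.0060, 0.028 and 0.014, edgeR), with 287 CPM in LS174T 3D replicate 2 against 129 and 109 CPM in the others, and 0.23 without that library, then not called. In HCT116, leaving out 2D replicate 2 or 3D replicate 3 ended the calls of NDUFB7 (lowest value 0.48), NDUFB8 (0.40) and NDUFA13 (0.53), as did 2D replicate 1 for NDUFB7 and NDUFA13 and 3D replicate 1 for NDUFA13. In LS174T, leaving out 2D replicate 3 also ended those of NDUFB7 and NDUFA13, and 2D replicate 2 that of NDUFB7. In LS513, NDUFB7, NDUFB8 and NDUFA13 differed by 0.37, 0.42 and 0.49, with no overlap between growth conditions and adjusted p-values of 0.29, 0.056 and 0.10.

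**Figure D4:**
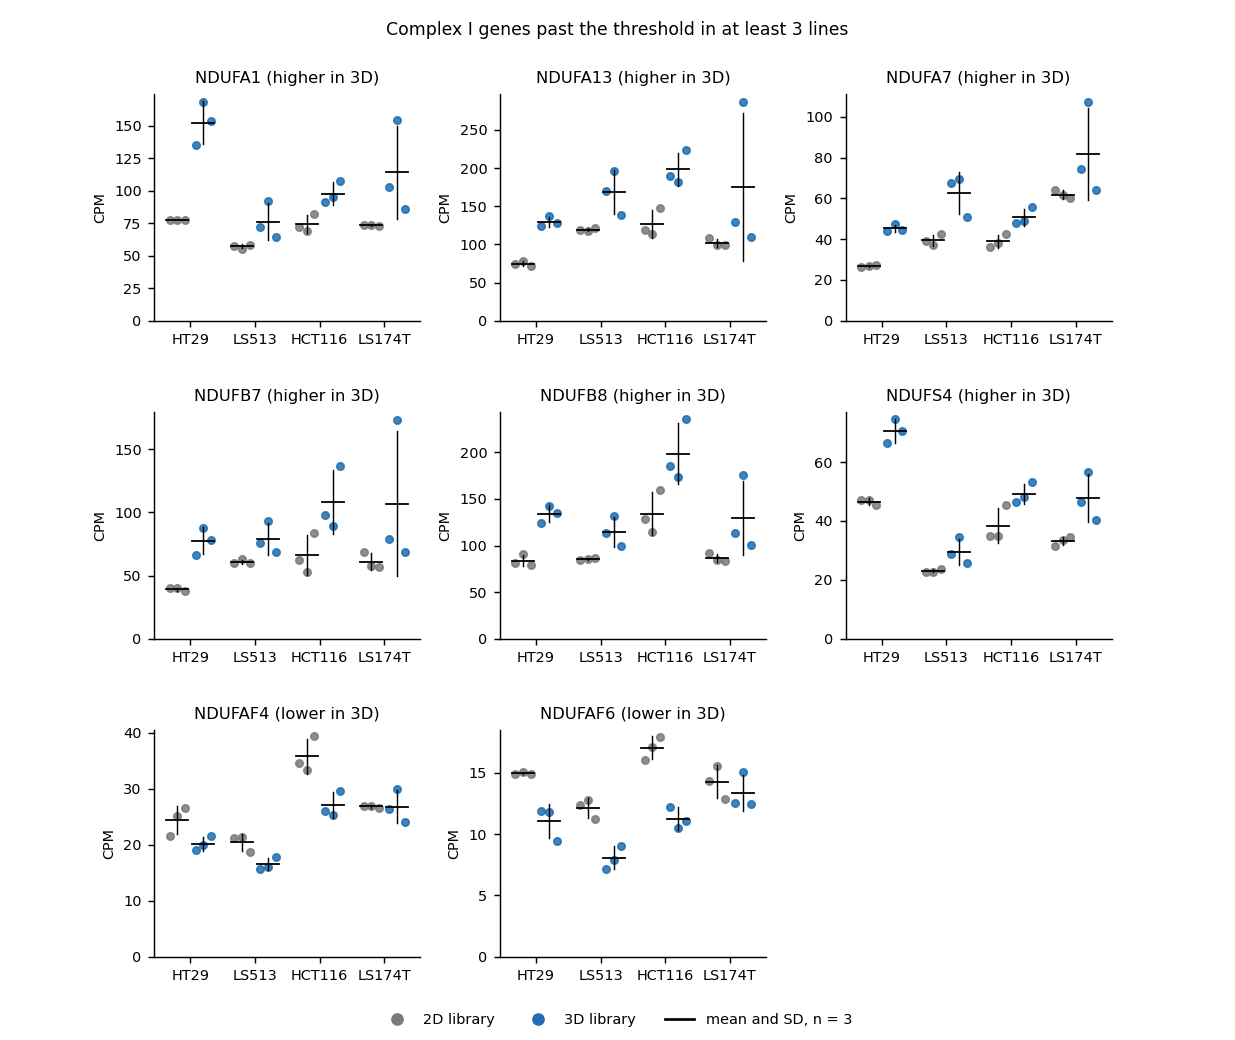
Level in CPM of members called in the same direction in at least 3 lines, 1 panel each, with every library as a point by line (2D grey, 3D blue) and the mean and SD over 3 libraries in black. In LS174T, replicate 2 is the highest 3D library in each panel, as for NDUFA13 at 287 CPM.

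The remaining membrane arm subunits followed in fewer lines. NDUFA3 rose in HT29 (0.39) and LS513 (0.45), where it was 53.3, 54.2 and 55.9 CPM in 2D and 79.8, 84.7 and 59.1 CPM in 3D (adjusted p = 0.015, edgeR), a call lost without any 1 of LS513 2D replicates 1 and 2 and 3D replicates 1 and 2 (lowest value 0.35). NDUFA11, NDUFB4, NDUFB5, NDUFB11 and NDUFC2 rose in HT29 and LS174T, and NDUFA8, NDUFB1, NDUFB2, NDUFB3 and NDUFS5 in HT29, with log2 fold changes of up to 0.91 for NDUFB1. NDUFA10 and NDUFB9 were called in LS174T, at 0.29 and 0.41, and neither was called there without replicate 2 (0.21 and 0.14). NDUFB6 and NDUFB10 had log2 fold changes between -0.16 and 0.29.

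NDUFC1, a small membrane arm subunit, was the member whose growth effect differed between lines by the interaction test (adjusted p = 0.037, edgeR), where 17.1% of all tested genes passed. In LS513, NDUFC1 was 33.9, 33.9 and 34.8 CPM in 2D and 42.0, 44.8 and 39.7 CPM in 3D. In LS174T, it was 55.7, 55.4 and 50.5 CPM in 2D and 62.8, 73.2 and 62.4 CPM in 3D. It rose without overlap in both lines, by 0.30 in each (adjusted p = 0.030 and 0.035, edgeR). Without any 1 of the LS513 2D libraries and 3D replicates 1 and 2, the call in LS513 was lost (lowest value 0.25), and that in LS174T was lost without any 1 of its 2D libraries and 3D replicate 2 (lowest value 0.23). In HT29, 38.8, 41.9 and 45.0 CPM in 2D overlapped with 39.1, 37.2 and 39.2 CPM in 3D (-0.12), and in HCT116 46.9, 48.2 and 61.8 CPM overlapped with 46.9, 50.1 and 51.2 CPM (-0.08). NDUFC1 shares 18.5% of its exonic bases with MGARP on the same strand, which was at or under 0.229 CPM in every library. The next smallest interaction p-values among the members were those of NDUFB3 (adjusted p = 0.081, edgeR) and NDUFA10 (adjusted p = 0.098, edgeR). The number of members past this threshold ran from 0 to 10 when 1 library was left out. It was 10 without LS174T 3D replicate 2 (21.4% of all tested genes passed) and 4 without HCT116 3D replicate 3 (18.4%). Without LS174T 3D replicate 3 it was 3 (18.3%), and without LS513 3D replicate 2 or 3 it was 2 (14.8% and 15.9%). It was 0 without any 1 of HT29 2D replicates 2 and 3, HT29 3D replicates 3 and 4, LS513 2D replicates 1, 2 and 3, LS513 3D replicate 1, HCT116 3D replicates 1 and 2, and LS174T 2D replicates 2 and 3. In these last fits, between 13.6% and 15.6% of all genes passed. NDUFC1 itself passed in 10 of the 24 fits and missed the threshold in 14, which include those without HT29 3D replicate 1 and LS513 3D replicate 2, where other members passed. It also missed it in the edgeR fits without the filter (adjusted p = 0.17) and with a replicate block (adjusted p = 0.15).

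The assembly factors went in both directions. Of the 8, 3 rose and 2 fell in HT29, 2 fell in LS513, 1 rose and 3 fell in HCT116, and none was called in LS174T. Among all tested genes, 21.1% rose and 19.6% fell in HT29, 13.7% and 9.9% in LS513, and 16.8% and 12.3% in HCT116. For LS174T, these shares were 13.1% and 9.15%. NDUFAF6, a factor that acts early in assembly of the peripheral arm, was 14.9, 15.0 and 14.9 CPM in HT29 grown in 2D and 11.9, 11.8 and 9.47 CPM in 3D. In LS513, it was 12.4, 12.8 and 11.2 CPM in 2D and 7.18, 7.92 and 9.04 CPM in 3D. In HCT116, 16.1, 17.1 and 17.9 CPM in 2D stood above 12.2, 10.5 and 11.1 CPM in 3D. Every 3D library of these lines was below every 2D library, with log2 fold changes of -0.43, -0.59 and -0.60 (adjusted p = 0.0064, 0.0011 and 0.00066, edgeR). The value in HT29 was -0.30 and not called without 3D replicate 4 (adjusted p = 0.075, edgeR). In LS174T, 14.4, 15.6 and 12.9 CPM overlapped with 12.6, 15.0 and 12.4 CPM (-0.10, adjusted p = 0.59), and the interaction of line and growth missed the threshold in edgeR (adjusted p = 0.10) but passed it in DESeq2 (adjusted p = 0.036).

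NDUFAF4, which takes part in the assembly of the same arm, fell by 0.31 in LS513 and by 0.41 in HCT116 on the log2 scale (adjusted p = 0.041 and 0.0058, edgeR). In HCT116, it was 34.6, 33.4 and 39.3 CPM in 2D and 26.1, 25.3 and 29.6 CPM in 3D, without overlap. In HT29, its 2D and 3D libraries shared the value of 21.6 CPM, and the call there (-0.27, adjusted p = 0.048, edgeR) was kept in 2 of the 24 fits with 1 library left out (HT29 2D replicate 1 or LS174T 3D replicate 3), was as small as -0.18 in the others, and was kept under none of the 6 other ways of fitting. In LS513, it was kept in 15 of the 24 (smallest change -0.27, adjusted p up to 0.15, edgeR), and was lost without any 1 of LS513 2D replicates 1 and 2, LS513 3D replicates 1 and 2, HCT116 2D replicate 1, the LS174T 2D libraries and LS174T 3D replicate 1. In LS174T, the log2 fold change was -0.00. NDUFAF5, which hydroxylates NDUFS7, fell in HCT116, from 15.3, 13.4 and 15.6 CPM to 10.3, 10.4 and 11.6 CPM (-0.45, adjusted p = 0.0063, edgeR). The factors that rose were NDUFAF1 (0.52), NDUFAF3 (0.51) and NDUFAF8 (0.38) in HT29 and NDUFAF3 (0.49) in HCT116, while NDUFAF2 and NDUFAF7 were called in no line.

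By the methods, every overlap of a read with an exon entered the counts, and the counting options are not given, so some members cannot be separated from their neighbours. Same-strand exon overlap with another gene was annotated for 14 members. The readthrough gene NDUFC2-KCTD14 shares 100% of its exonic bases, and its counts were between 73.1% and 98.5% of those of NDUFC2, so its calls in HT29 (0.42) and LS174T (0.32, or 0.20 and not called without 3D replicate 2) cannot be told apart from those of NDUFC2 (0.29 and 0.32). Loci with no gene name of their own held between 99.5% and 101% of the counts of NDUFA7, up to 101% of those of NDUFV2 and between 92.9% and 95.7% of those of NDUFA13. For NDUFB8 and NDUFA11 such loci held between 79.4% and 83.4% and between 75.1% and 81.5%. For NDUFA9, NDUFB2 and NDUFS3 the neighbour with most counts reached 61.9%, 57.7% and 43.9%. The neighbours of NDUFS1, NDUFS8, NDUFV1 and NDUFC1 held at most 1.70% of their counts. On the opposite strand, 21 members overlap another gene, among them NDUFA7 with the ribosomal protein gene RPS28, which was at between 180.2 and 683 CPM.

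Levels differed between the lines for every member: 48 of 48 passed the test of the line averaged over both growth conditions, as did 95.7% of all tested genes. Leaving NDUFA4L2 aside, the level in the highest line was between 1.24 and 4.30 times that in the lowest, with a median of 1.70, and 11 members exceeded 2. LS174T was the highest line for 16 members, HT29 for 15, HCT116 for 11 and LS513 for 6, while LS513 was the lowest for 18. All 6 pairs of lines differed for NDUFV2, NDUFB5 and NDUFAF4, among others.

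The members with the smallest p between lines were NDUFS1, NDUFB9, NDUFA4L2, NDUFA10 and NDUFV2. NDUFS1 was 214 ± 7.49 CPM in LS513, 198 ± 12.3 in HT29, 117 ± 7.23 in HCT116 and 86.2 ± 7.04 in LS174T (mean ± SD over the 6 libraries of a line). Its order was set by all pairs but LS513 and HT29, whose difference missed the threshold (adjusted p = 0.089, edgeR). NDUFB9, a membrane arm subunit, was at 476 ± 33.4 CPM in HT29, 263 ± 28.0 in HCT116, 126 ± 35.1 in LS174T and 111 ± 12.8 in LS513. Only LS174T and LS513 were not separated (adjusted p = 0.13, edgeR). NDUFA10, an accessory subunit related to nucleoside kinases, was 167 ± 1.27 CPM in LS513, 138 ± 17.8 in LS174T, 133 ± 6.01 in HCT116 and 84.2 ± 5.91 in HT29, with LS174T and HCT116 not separated (adjusted p = 0.51, edgeR). NDUFV2, an iron-sulfur subunit next to NDUFV1, was 119 ± 10.8 CPM in HT29, 103 ± 9.47 in HCT116, 93.2 ± 6.38 in LS513 and 52.0 ± 2.31 in LS174T. For NDUFA4L2, LS513 and HCT116 were the pair not separated (adjusted p = 0.17, edgeR). With growth condition, the largest log2 fold changes of NDUFS1, NDUFB9 and NDUFV2 were -0.12, 0.41 and 0.21.

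**Figure D5:**
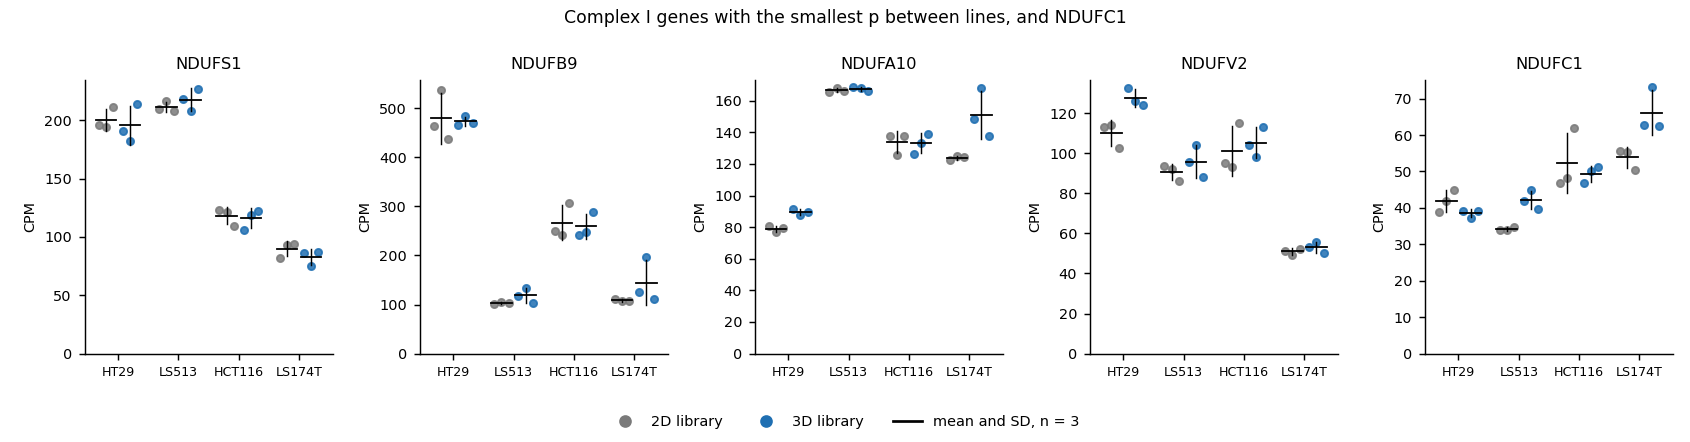
Level in CPM by library of NDUFS1, NDUFB9, NDUFA10 and NDUFV2, which with NDUFA4L2 had the smallest p between lines, and of NDUFC1, with 2D in grey, 3D in blue, and the mean and SD over 3 libraries in black. NDUFB9 in HT29 lies between 436 and 537 CPM in both growth conditions.

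Between genes, levels were compared per length, as the mean CPM over the 24 libraries per kilobase of the median coding transcript. They ranged from 5.02 to 326 CPM per kilobase, with a median of 76.8. The highest were the subunits NDUFB9 (326), NDUFS5 (279) and NDUFS3 (232) and the lowest were the assembly factors NDUFAF7 (9.61), NDUFAF6 (6.83) and NDUFAF5 (5.02). With the length of all exons instead, NDUFB9 ranked 11 and NDUFS3 ranked 19 among the 48, whereas NDUFS5 ranked 1 and the assembly factors remained among the last 4.

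Nuclear genes of the other respiratory complexes were also called higher in 3D, most often in HT29 and LS174T. Of all tested genes, 21.1% rose in HT29, 13.7% in LS513, 13.1% in LS174T and 16.8% in HCT116. The counts below for the ATP synthase in LS513 and HCT116, and for complex III in LS513, were under these shares. Those for LS174T include 3D replicate 2 and were not repeated without it. No comparison with genes of like length was made for these complexes. Of the 9 nuclear genes of complex III, 6 rose in HT29, 1 in LS513, 7 in LS174T and 2 in HCT116. Of 11 tested genes of complex IV, 9, 7, 10 and 5 rose in these lines, and of 18 genes of the ATP synthase 14, 2, 9 and 2 rose. None of these fell, and the medians in HT29 were 0.56, 0.64 and 0.50. Among the 4 genes of complex II, SDHA, the flavin subunit, rose in HT29 and HCT116 and no other passed. The 7 mitochondrially encoded subunits of complex I passed the test in HCT116 alone, where MT-ND4, MT-ND4L (1.22) and MT-ND5 (1.68) rose. There, the 7 genes summed to 21732 CPM in 3D replicate 1 against 7788 and 5219 CPM in the other 3D libraries, and to between 3923 and 6156 CPM in 2D.

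Of 11 complex I assembly factors with other names, 3 rose (TIMMDC1, DMAC1 and DMAC2) and 2 fell (TMEM126B and TMEM70) in HT29, 1 rose (DMAC1) and the same 2 fell in HCT116, and 2 rose (ECSIT and DMAC2) and 1 fell (ACAD9) in LS174T. Among 8 regulators of mitochondrial genes, PPRC1, a coactivator of the PGC-1 family, fell in all 4 lines (-0.62, -0.35, -0.36 and -0.54 in HT29, LS513, HCT116 and LS174T). TFAM, which packages and transcribes mitochondrial DNA, fell in HT29, LS513 and HCT116, PPARGC1B fell in HCT116 and LS174T, and ESRRA rose in HT29 and LS174T. Of 11 hypoxia genes, none of them a member, 7 rose in HT29, 9 in LS513, 10 in LS174T and 10 in HCT116. None fell, and the medians of the list lay between 1.14 and 1.77. Beside these lists, 21.1% of all tested genes rose and 19.6% fell in HT29, and 13.7% and 9.9% in LS513. The shares were 13.1% and 9.15% in LS174T and 16.8% and 12.3% in HCT116.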

How the data were processed

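Polyadenylated RNA was measured in 24 libraries of 4 CRC lines, 3 per line and growth condition. Whole-number gene counts of each technical replicate, not normalized, were deposited by the authors, who trimmed reads (Trim Galore 0.4.1), aligned them with STAR, dropped multiple alignments and counted exonic overlaps with HTSeq-count (0.5.3). The methods name Ensembl 91 annotation, the submitters' processing notes name hg19, and the counting options are not given in the sources used here. A gene of the set is counted but not reported by name here. Members, lists and tests were chosen with earlier results of these data known.

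The 191 sets of counts were summed over technical replicates (8 per library, 7 for HT29 3D replicate 4; the median chi-square between them, per degree of freedom, was 0.906 to 0.933). Symbols, lengths and overlaps came from GENCODE 29 on GRCh38, which matched 57980 of the 58243 identifiers. Counts were filtered with filterByExpr (19387 genes), TMM-normalized and fitted in edgeR 4.0.16 (R 4.3.3) with a robust quasi-likelihood model of 8 groups and 16 residual degrees of freedom. Adjusted p-values are two-sided, Benjamini-Hochberg over all tested genes. Alternatives were DESeq2 1.42.0 or its size factors, no filter, a replicate block, no technical replicate d, single-line fits, other cutoffs, and leaving out each library. The fit was also run on simulated counts with a common spread and changes in HT29 alone, which cannot test an unequal spread between lines. Members were named with values if they were NDUFA4 or NDUFA4L2, core subunits, called in the same direction in at least 3 lines, among the 3 largest increases or decreases of a line, the 3 smallest interaction or 5 smallest between-line p-values, the 3 highest or lowest per kilobase, or shared exons.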

Additional observations from a re-analysis of the deposited data

Results flagged for a closer look

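The growth effect of NDUFC1 differed between the lines by the interaction test (adjusted p = 0.0372, edgeR), with log2 fold changes of 0.30 in LS513 and LS174T, -0.12 in HT29 and -0.08 in HCT116. It was the only one of the 48 members to pass, where 17.1% of all tested genes passed. With 1 library left out at a time, NDUFC1 passed in 10 of 24 edgeR fits, and it missed the threshold with a replicate block or without the filter on low counts.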

How the results depend on the processing

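The numbers of called members moved with several choices. With the fold cutoffs of the study on top of the adjusted p, 1 member passed in each line, in place of between 7 and 29. At an unadjusted p under 0.05, 15 passed in LS513 and 18 in HCT116 (34.9% and 39.7% of all genes, edgeR). Without the filter on low counts, 11 members were called in LS513 (12.4% of all genes) and 7 passed the interaction test (10.4%). For that test, DESeq2 gave 5 members (21.0% of all genes) in place of 1 (17.1%). Without technical replicate d, 4 were called in LS513 (23.7% of all genes). With only the 6 libraries of a line in the fit, 17 were called in LS513 (5592 of 15133 genes tested) and 2 in LS174T (1648 of 16035). The causes were not tested. Leaving out 1 library at a time gave between 26 and 32 calls for HT29, 2 and 18 for LS513, 3 and 16 for HCT116 and 6 and 34 for LS174T. Between 0 and 10 members passed the interaction test and between 47 and 48 the test between lines. The share of all genes called ran from 32.1% to 44.1%, 14.0% to 28.5%, 18.9% to 34.5% and 10.5% to 30.5% in these lines. It ran from 13.6% to 21.4% for the interaction test and from 94.8% to 95.9% for the test between lines.

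With a replicate block of line and number, 19 members were called in HT29, 4 in LS513, 15 in LS174T and 8 in HCT116. HT29 2D replicate 2 and 3D replicate 4 have no partner of their number, so they did not enter the HT29 difference there. The shares of all genes were 27.9%, 18.7%, 16.9% and 23.8%. In that fit, 0 members passed the interaction test (8.76% of all genes). The test between lines has no such fit, since the block holds the line. Equal numbers mark no shared culture in the labels, and the deviations of the 11 same-numbered pairs correlated between -0.209 and 0.216, with 2 pairs over 0.1, so the numbers were not taken to pair the libraries. Of 11 libraries grown in 2D, 3 correlated best with their own number.

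For the named members, none of the 51 called differences changed sign under any alternative. DESeq2 and its size factors each lost 1 call, the fit without technical replicate d 6, that without the filter 10, and the replicate block and the fits of single lines 17 each. Depth limits NDUFA4L2 in LS513 and HCT116, where it had at most 26 counts.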
